A study of Mus musculus with 9 samples.

Results

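The cytosolic nucleic acid sensors described here were 9 mouse genes, Ddx58, Ifih1, Dhx58, Mavs, Tmem173, Zbp1, Aim2, Trex1 and Adar. They were taken by gene name from a table of 54532 genes measured in 9 RNA-seq libraries of RAW264.7 cells. Of the 9 genes, 8 passed a filter on low values and were tested among 11585 genes, and Trex1 did not pass because it was listed at 0 in every library. Zbp1 passed only through the libraries of LPS-treated cells.

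Cells detect foreign or misplaced nucleic acids in the cytosol with proteins that bind double-stranded RNA or DNA. The RNA helicases RIG-I (Ddx58) and MDA5 (Ifih1), tuned by the related helicase LGP2 (Dhx58), signal through the mitochondrial adaptor MAVS, whereas STING (Tmem173) relays the signal of the DNA sensor cGAS, and both routes lead to type I interferon. ZBP1 binds Z-form nucleic acid and can start cell death, AIM2 binds DNA and assembles an inflammasome, and TREX1 and ADAR1 (Adar) keep the cell's own DNA and RNA from setting off these sensors. In macrophages, many of these genes are themselves induced by interferon.

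RAW264.7 is a line of mouse macrophages that came from ascites, labelled wild type. Control cells were untreated, LPS cells were cultured with lipopolysaccharide, a bacterial outer membrane component that activates macrophages through TLR4, at 1 μg/ml for 6 h, and LPS + G-CDs cells received the same LPS together with 400 μg/ml of G-CDs, carbon dots made from Glycyrrhiza. There were 3 libraries per group, no group given G-CDs without LPS, and no time or dose other than these. The treatment label of the last group named LPS alone, and these libraries were grouped by their titles. Because no label says that the 3 libraries of a group came from separate cultures, p-values measure only the spread between these libraries.

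Values are FPKM, reads scaled to gene length and to the library size behind the deposited table, which was not the reads on genes. Differences are on the log2(FPKM + 1) scale, which understates the change of genes with low values. The libraries held 14752400 to 17312255 reads on genes. Of 8 macrophage markers, 8 reached 1 FPKM in every group, with a summed level of 2558 to 3503 FPKM in control, 3740 to 3942 in LPS and 3126 to 5138 in LPS + G-CDs libraries. Summed T cell markers ran from 0.871 to 1.40, 3.28 to 3.85 and 4.55 to 6.90 FPKM in the same order. Nearly all of this was Lck, at 0.783 to 6.88 FPKM, whereas Cd3g and Cd8a were at 0 in all 9 libraries, and its part in the sensor results was not tested. The 5 B cell markers summed to at most 0.553 FPKM and the 7 fibroblast and epithelial markers to at most 0.0574. Replicates differed by more than counting noise in every group, but the LPS libraries were the most alike, with a chi-square per degree of freedom of 4.14 to 6.15 between pairs, against 61.3 to 123 among the control pairs and 45.0 to 161 among those of LPS + G-CDs. Among 11585 tested genes, 3630 changed with LPS at an adjusted p under 0.05, of which 1827 were higher and 1803 lower. Rescaled to the same sum of FPKM, which shifted the median of all genes to -0.21, 1015 were higher and 3106 lower.

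With LPS, the transcripts of the RNA sensors RIG-I, MDA5 and LGP2, of ZBP1, of AIM2 and of the RNA editor ADAR1 rose, while Mavs fell and Tmem173 did not pass the test. In all, 6 of the 8 tested sensors were higher and 1 was lower, where 15.8% of all tested genes were higher and 15.6% lower. The median difference of the 8 was 2.21, against 0.02 over all tested genes. Zbp1 is among the 6, and its direction was given by the filter it passed. Of the other 7 sensors 5 were higher, with a median of 1.52. In 6 sensors every LPS library lay above every control library, which 27.4% of all genes did, and in Mavs every LPS library lay below, as in 25.1% of genes. Because bulk RNA was measured, fewer expressing cells and less RNA per cell cannot be told apart.

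In control cells, Adar (16.9 ± 3.40 FPKM), Tmem173 (14.8 ± 2.66), Mavs (14.4 ± 1.18) and Aim2 (13.3 ± 2.50, all mean ± SD, n = 3) were the most abundant, with overlapping ranges. Dhx58 followed at 5.39 ± 0.924 and Ddx58 at 4.10 ± 0.437 FPKM, without overlap between them, then Ifih1 at 1.36 ± 0.128 and Zbp1 at 0.126 ± 0.0624. In LPS cells the order was different. Ddx58 (51.5 ± 1.77 FPKM) and Adar (49.6 ± 1.60) overlapped at the top, and Dhx58 (46.3 ± 0.781) overlapped with Ifih1 (44.4 ± 1.66). Aim2 followed at 22.9 ± 1.06 FPKM. Zbp1 (17.7 ± 1.00 FPKM) and Tmem173 (15.9 ± 1.30) overlapped, and Mavs was the lowest of the 8 at 9.91 ± 0.459. These levels are per gene length. The length used for Ddx58 was 7050 bases, against 3874 in its longest transcript, and for Dhx58 it was 3272 against 2412. The order of levels between genes can therefore change with the length used, which was not tested. The limits of gene length given further on also apply.

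**Figure D1:**
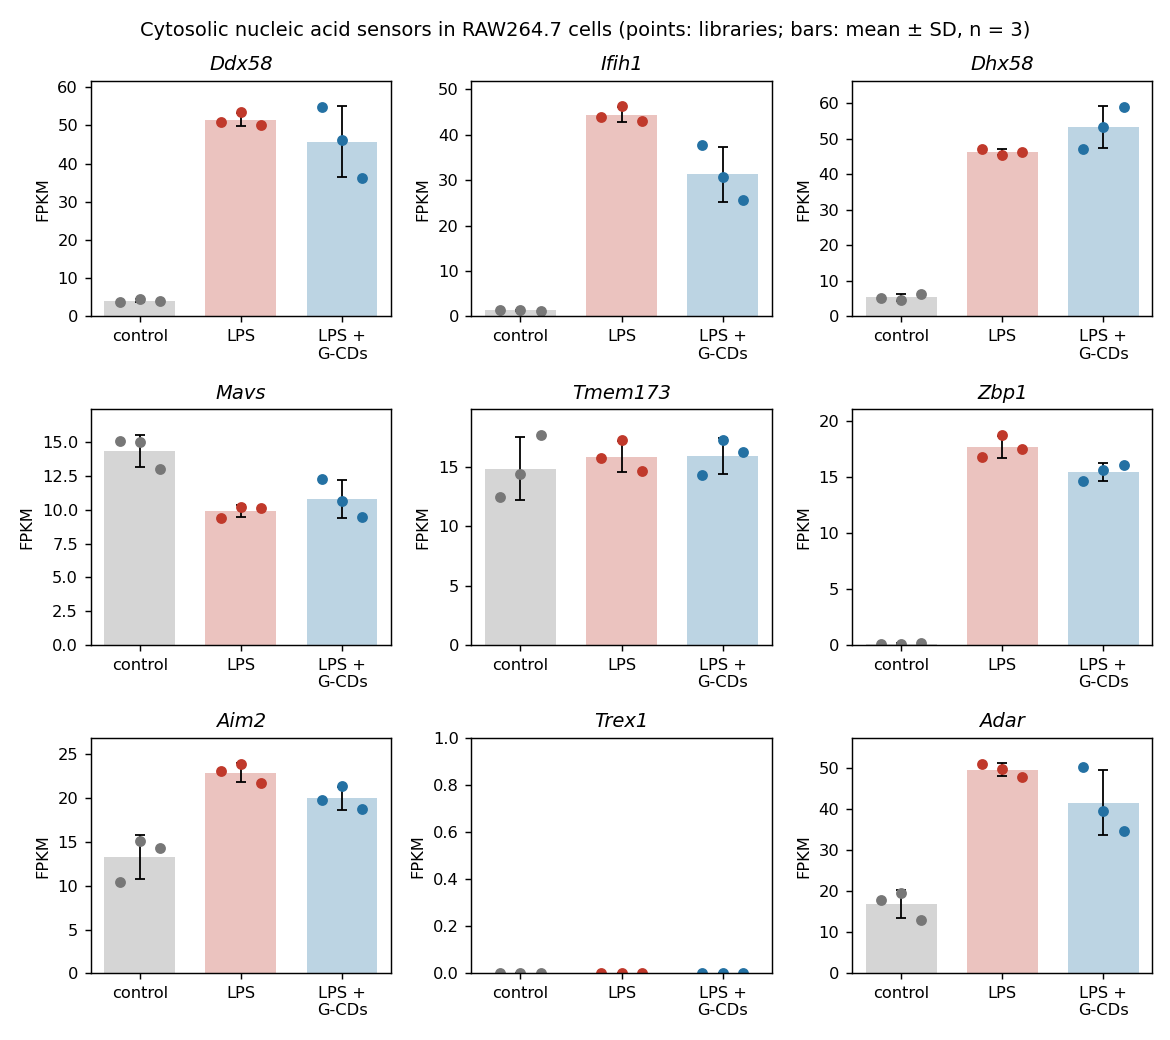
FPKM of each of the 9 sensors (y axis, linear and starting at 0, with its own range per gene) in the 3 groups of 3 libraries; points are libraries, bars are means and error bars are SD. Ifih1 sits between 1.22 and 1.47 in control and between 43.1 and 46.3 in LPS libraries, Mavs is lower in both treated groups, and Trex1 is listed at 0 throughout.

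Ddx58 encodes RIG-I, which recognises short double-stranded RNA with an uncapped triphosphate end. It lies on chromosome 4 (chr4:40203773-40239828, GRCm38, minus strand). Its level was 3.70, 4.57 and 4.03 FPKM in control libraries 1 to 3 and 50.9, 53.5 and 50.2 in LPS libraries 1 to 3. The lowest LPS library lay far above the highest control library. The log2 difference was 3.37 ± 0.15 (SE), adjusted p = 7.17e-07 by limma.

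Ifih1 encodes MDA5, which binds long double-stranded RNA, and lies at chr2:62595798-62646255 (minus strand). It was at 1.47, 1.38 and 1.22 FPKM in control libraries and at 43.8, 46.3 and 43.1 in LPS libraries. Of the 3 helicases it had the lowest level in control cells and the largest estimated rise with LPS, a ratio of mean FPKM of 32.8 and a log2 difference of 4.27 ± 0.14 (adjusted p = 8.71e-08). Dhx58 encodes LGP2, a helicase without the signalling domains of the other two, at chr11:100694884-100704271 (minus strand). It was at 5.17, 4.59 and 6.40 FPKM in control and at 47.1, 45.6 and 46.3 in LPS libraries. Its log2 difference was 2.90 ± 0.14 (adjusted p = 8.34e-07). Of its exon bases, 4.3% overlap genes on the opposite strand, most of all Dhx58os, and it was not stated whether reads were counted by strand.

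The proportions of the 3 helicases changed with LPS. Within each library, Ifih1 stood at 0.302 to 0.397 times the FPKM of Ddx58 in control cells and at 0.859 to 0.865 times in LPS cells. Dhx58 stood at 3.33 to 5.26 times Ifih1 in control and at 0.985 to 1.08 times in LPS cells. These ratios were chosen after the values had been seen and were not tested.

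Promoter windows from RefSeq (GRCm38.p6) were found for 6 of the 9 genes, and not for Dhx58, Tmem173 or Zbp1. They were searched on both strands for the interferon-stimulated response element core GAAANNGAAA, the STAT site TTCNNNGAA and the kappaB site. Parts of the windows are shown for the 2 members that held the interferon core, with the match in capitals. Part of the window of Mavs, which held none of the 3 motifs, is shown beside them. Both matches lie just downstream of the RefSeq start site, at bases 3 to 12 (antisense) for Ddx58 and 33 to 42 (sense) for Ifih1.
Ddx58, bases -100 to 20, chr4:40239806-40239925, minus strand: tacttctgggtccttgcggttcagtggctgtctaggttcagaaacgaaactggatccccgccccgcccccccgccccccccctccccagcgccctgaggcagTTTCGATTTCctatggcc
Ifih1, bases 18 to 47, chr2:62646209-62646238, minus strand: ctggagaagagaatcGAAACAGAAAccgat
Mavs, bases -100 to -1, chr2:131233963-131234062, plus strand: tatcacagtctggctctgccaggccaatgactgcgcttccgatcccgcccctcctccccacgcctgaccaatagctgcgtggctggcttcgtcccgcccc
Of 32851 RefSeq windows of the same length, 3.44% held the interferon core, 8.30% the STAT site and 8.46% the kappaB site. The window of Aim2, which rose with LPS, also held none of the 3. Of the 3 windows of Adar, the third held the STAT site and the others none, and of the 2 of Trex1 the first held the kappaB site. A match of letters is a description and not a bound site.

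Mavs encodes the adaptor on the mitochondrial surface through which RIG-I and MDA5 signal, and lies at chr2:131234063-131248025 (plus strand). It was at 15.1, 15.0 and 13.0 FPKM in control libraries and at 9.39, 10.2 and 10.1 in LPS libraries. The groups did not overlap, and Mavs fell by 0.49 on the log2 scale (SE 0.12, adjusted p = 0.0149). The fall was of like size but did not pass without LPS replicate 1 (-0.46, adjusted p = 0.0667) or with the trend of gene length removed (-0.42, adjusted p = 0.0508). Over 20 alternative fits the difference ran from -0.74 to -0.42.

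Tmem173 encodes STING, the endoplasmic reticulum protein that responds to the cyclic dinucleotide made by cGAS. It was at 12.4, 14.4 and 17.7 FPKM in control and at 15.7, 17.2 and 14.6 in LPS libraries. The groups overlapped, and the log2 difference was 0.10, with a 95% interval of -0.23 to 0.43 (adjusted p = 0.641). Its sign was not stable, being -0.15 after rescaling to the same sum of FPKM and -0.01 without control replicate 1.

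Zbp1, at chr2:173206612-173218923 (minus strand), was nearly silent in control cells, at 0.121, 0.0666 and 0.191 FPKM, from 8, 4 and 12 reads. In LPS libraries it was at 16.8, 18.8 and 17.5 FPKM, above every control library. The log2 difference was 4.05 ± 0.10 (adjusted p = 2.36e-08), and the ratio of mean FPKM, 140, rests on the 24 control reads.

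Aim2, at chr1:173350879-173466040 (plus strand), was already present in control cells at 10.4, 15.1 and 14.3 FPKM and rose to 23.1, 23.9 and 21.8 with LPS. The groups did not overlap, although control library 1 lay apart from the other control libraries. The log2 difference was 0.76 ± 0.14 (adjusted p = 0.00388), and with libraries rescaled to the same sum of FPKM it was 0.50 (adjusted p = 0.0634). Of the 50-base words of its longest transcript, 0.8% also occur in other genes, most of all Gm7871.

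Adar encodes ADAR1, which converts adenosine to inosine in double-stranded RNA and so keeps self RNA from activating MDA5. It lies at chr3:89715022-89753446 (plus strand). It was at 18.0, 19.6 and 13.0 FPKM in control and at 51.2, 49.8 and 48.0 in LPS libraries, without overlap. The log2 difference was 1.52 ± 0.18 (adjusted p = 0.000257). Of its exon bases, 16.8% overlap genes on the opposite strand, most of all Chrnb2, so without strand-aware counting some reads cannot be told apart.

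Trex1 encodes the exonuclease that degrades cytosolic DNA, and was listed at 0 FPKM in all 9 libraries. Its level cannot be read from this table. In GENCODE mouse release 21, all 1147 of its exon bases (chr9:109057933-109059734, minus strand) lie within exons of Atrip on the same strand. Of its 50-base words, 95.6% occur in transcripts of other genes, most of all Atrip. The start of the Trex1 coding sequence, shown with its start codon in capitals because it is found unchanged in 3 Atrip transcripts, reads as follows.
Trex1, chr9:109058862-109058921, minus strand: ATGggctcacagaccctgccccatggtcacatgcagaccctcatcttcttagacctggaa
Atrip, whose product binds the checkpoint kinase ATR, was listed at 3.06 to 4.40 FPKM (316 to 590 reads) across the 9 libraries, and the bases shared with Trex1 make up 16.0% of its 7152 exon bases. How reads from the shared bases were assigned was not tested.

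**Figure D2:**
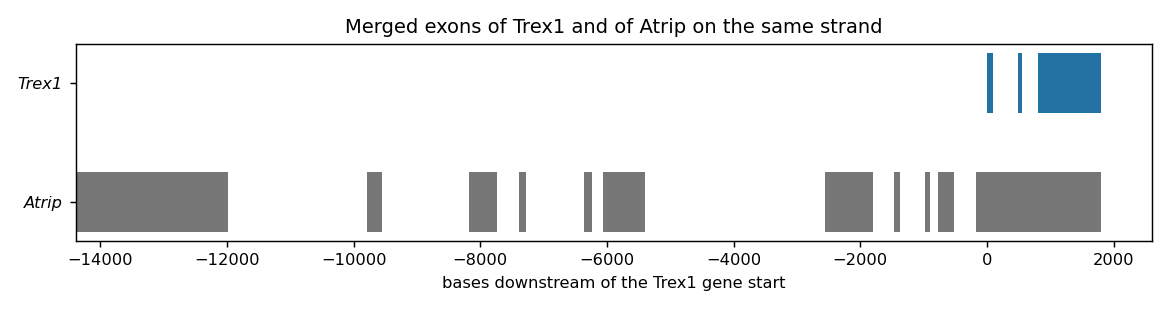
Merged exons of Trex1 and Atrip, transcribed from left to right, by distance in bases from the start of Trex1 (x axis). Each Trex1 exon block lies within the last Atrip block, which runs from -174 to 1801.

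The comparison of LPS + G-CDs with LPS asks whether the carbon dots altered the response. No tested sensor passed: 0 of 8 were higher and 0 lower at an adjusted p under 0.05 by limma, where 0.250% of all tested genes were higher and 0.242% lower (29 and 28 genes). At an unadjusted p under 0.05 by limma, 1 of 8 sensors (Ifih1) passed, as did 1765 of all 11585 tested genes, among which Ifih1 ranked 342 by p. By the threshold used in the study, p under 0.01 and over 1.5-fold, 0 of 8 sensors passed, where 1.24% of genes were higher and 1.24% lower.

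Ifih1 came nearest to the threshold. It was at 37.6, 30.6 and 25.6 FPKM in LPS + G-CDs libraries 1 to 3, each below the lowest LPS library at 43.1. The log2 difference was -0.51 with a 95% interval of -0.83 to -0.18 (adjusted p = 0.212 by limma, from an unadjusted p of 0.00628 in the same fit across all genes). Without LPS + G-CDs replicate 1 it was -0.65 and passed (adjusted p = 0.0475), as 1 of 256 genes in place of 57.

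For the other helicases the intervals held 0. Ddx58 was at 54.7, 46.3 and 36.2 FPKM, overlapping the LPS libraries, with a log2 difference of -0.19 (interval -0.54 to 0.16, adjusted p = 0.474). Dhx58 was at 47.3, 53.4 and 59.1 FPKM, just above the LPS range of 45.6 to 47.1, with a difference of 0.19 (interval -0.12 to 0.50, adjusted p = 0.421). Without LPS + G-CDs replicate 1 or 3, Ddx58 differed by -0.32 or -0.03 and Dhx58 by 0.27 or 0.12. After rescaling to the same sum of FPKM, Ddx58 differed by -0.35 and Dhx58 by 0.03. Within each library, Ifih1 was 0.661 to 0.707 times Ddx58, below the 0.859 to 0.865 times seen with LPS alone. With 3 libraries against 3, an exact permutation test of such a ratio cannot go below a p of 0.10, and none was run on it.

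Adar was at 50.3, 39.6 and 34.8 FPKM, with library 1 inside the LPS range and the others below it. The difference was -0.27 (interval -0.67 to 0.14, adjusted p = 0.403), and it was -0.41 without LPS + G-CDs replicate 1 (adjusted p = 0.126) and -0.15 without replicate 3 (adjusted p = 0.871). Zbp1, at 14.6, 15.7 and 16.1 FPKM, lay below each LPS library, with a difference of -0.18 (interval -0.42 to 0.05, adjusted p = 0.356). Aim2, at 19.8, 21.3 and 18.8 FPKM, also lay below, with a difference of -0.19 (interval -0.52 to 0.13, adjusted p = 0.439). In all, 3 of the 8 sensors lay without overlap below LPS and 1, Dhx58, above it, where 15.0% and 12.9% of all tested genes did.

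Mavs, at 12.3, 10.7 and 9.47 FPKM, and Tmem173, at 14.3, 17.3 and 16.3, overlapped the LPS libraries. Their log2 differences were 0.11 (interval -0.17 to 0.38, and 0.02 to 0.19 with a library left out) and 0.01 (interval -0.32 to 0.34). After rescaling to the same sum of FPKM these were -0.05 and -0.15. For the 7 sensors other than Ifih1 the intervals of this fit held 0 and lay between -0.67 and 0.50. Some intervals of other fits did not hold 0, those of Zbp1 with the length trend removed (-0.45 to -0.07) and after rescaling to the same sum of FPKM (-0.64 to -0.04, adjusted p = 0.388) and that of Adar without LPS + G-CDs replicate 1 (-0.81 to -0.01), and none of these passed after adjustment.

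**Figure D3:**
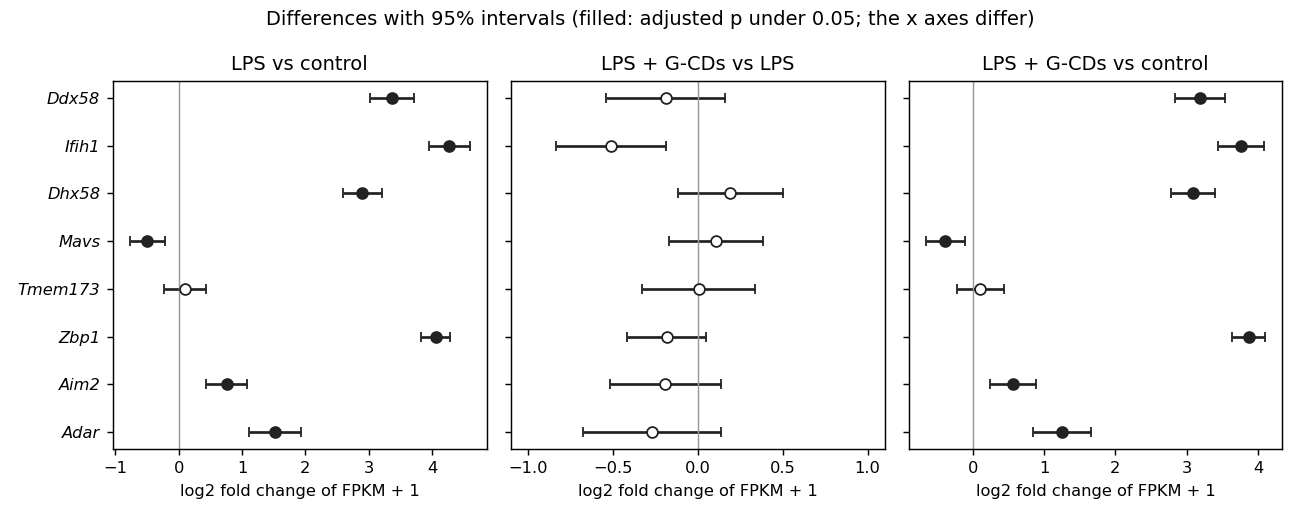
Log2 differences of FPKM + 1 (x axes, with different ranges) for the 8 tested sensors in the 3 comparisons; points are limma estimates, bars are 95% intervals, and filled points have an adjusted p under 0.05. In LPS + G-CDs against LPS no point is filled and the interval of Ifih1, from -0.83 to -0.18, is the only plotted interval there that leaves out 0.

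The spread among the LPS + G-CDs and control libraries went with gene length. For tested genes of 6 to 10 kb, the median log2 difference from the LPS mean was -0.001, -0.159 and -0.344 in LPS + G-CDs libraries 1, 2 and 3, and for genes of 2 to 4 kb it was -0.018, 0.135 and 0.263. Ddx58 (7050 bases), Ifih1 (8165) and Adar (8118) belong to the longer class. Ddx58 lay at 0.086, -0.150 and -0.497 and Adar at 0.018, -0.319 and -0.499, both lowest in library 3 like their class. Ifih1 lay at -0.232, -0.522 and -0.772, below the class median in each library.

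Dhx58 (3272 bases) lay at 0.029, 0.201 and 0.345, close to the 2 to 4 kb median in each library. Zbp1 (3529 bases) lay at -0.259, -0.164 and -0.127 and Aim2 (3501 bases) at -0.202, -0.097 and -0.273, below that median throughout. With the length trend removed from every library, the log2 difference was -0.32 for Ifih1 (adjusted p = 0.158), -0.26 for Zbp1 (adjusted p = 0.222), -0.27 for Aim2 (adjusted p = 0.350) and 0.09 for Dhx58 (adjusted p = 0.611). It was -0.04 for Ddx58 and -0.08 for Adar. Control library 3 had the same kind of trend, with a median of 0.193 for genes of 2 to 4 kb and -0.246 for those of 6 to 10 kb, against -0.03 to 0.04 in control libraries 1 and 2, and Adar was lowest there among the control libraries, at 13.0 FPKM. What set the length trend was not tested.

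**Figure D4:**
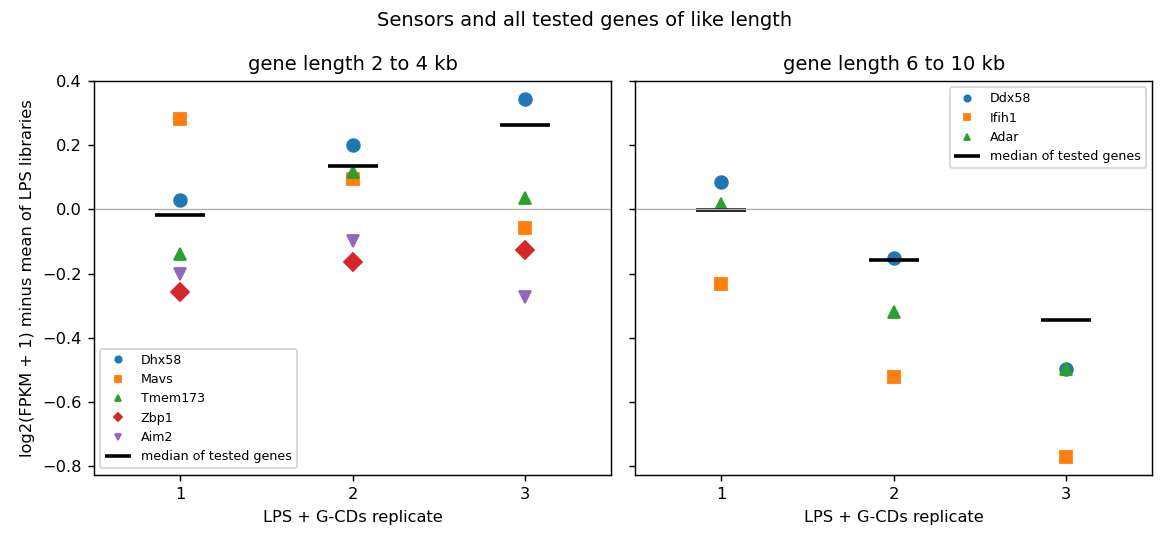
Log2(FPKM + 1) of each tested sensor minus its mean in the LPS libraries (y axis) in LPS + G-CDs libraries 1, 2 and 3 (x axis), split by gene length; black bars are the median of all tested genes of that length class. The medians reach 0.263 for 2 to 4 kb and -0.344 for 6 to 10 kb in library 3, and Ifih1 lies below its class in each library.

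Against untreated cells, LPS + G-CDs cells had higher levels of the helicases, Zbp1, Adar and Aim2 and a lower level of Mavs, and this comparison shares its libraries with the other comparisons. Of 8 sensors, 6 were higher and 1 lower, where 12.8% of tested genes were higher and 12.4% lower, and the same 6 and 1 did not overlap with control, as did 17.7% and 16.6% of genes. Zbp1 is again among the 6 with its direction given by the filter. Rescaled to the same sum of FPKM, which shifted the median of all genes to -0.33, 755 genes were higher and 3255 lower in place of 1488 and 1439, and 5 sensors were higher and 1 lower. The log2 differences were 3.76 for Ifih1 (adjusted p = 2.48e-07), 3.87 for Zbp1 (adjusted p = 3.47e-08), 3.18 for Ddx58 (adjusted p = 1.05e-06) and 3.09 for Dhx58 (adjusted p = 5.79e-07). Adar was higher by 1.26 (adjusted p = 0.000953) and Aim2 by 0.57 (adjusted p = 0.0192). Aim2 lost its call in 4 of 20 alternatives, the lowest difference being 0.15 after rescaling to the same sum of FPKM, and among them without LPS + G-CDs replicate 2 (adjusted p = 0.0829). Mavs fell by 0.38 on the log2 scale (adjusted p = 0.0477), a call that held in 7 of 20 alternatives and was lost without control replicate 1 or 2, any LPS replicate, or LPS + G-CDs replicate 2 or 3 (adjusted p from 0.082 to 0.142). In those fits the difference stayed between -0.38 and -0.30, and without an LPS replicate it was -0.38, since only the estimate of the spread changed. After rescaling to the same sum of FPKM, Mavs differed by -0.79 and passed (adjusted p = 0.0155 by limma). Tmem173 differed by 0.11 (interval -0.22 to 0.44, adjusted p = 0.640).

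Genes that work with the sensors were described from 8 lists, of which 116 genes were tested. With LPS, 51 of them were higher (44.0%) and 13 lower (11.2%), against 15.8% and 15.6% of all tested genes. The share of higher genes was over 15.8% in each of the 8 lists. Among the endosomal sensors that share (2 of 8) counts Tlr3, whose direction the filter gave, so nothing is read from it. The share of lower genes was under 15.6% in 6 lists, the exceptions being the endosomal sensors and the nucleases, editors and other restraints. With LPS + G-CDs against LPS, 0 of the 116 passed in either direction, which is near the 0.250% and 0.242% of all genes. Some genes passed the filter on low values only through the LPS-treated libraries and so had to differ, namely 5 of the double-stranded RNA effectors (Oasl2, Ifit1, Ifit3, Ifit3b and Isg20), Ifi202b, Tlr3, Il1b and Ifnb1, and Trim65 and Adarb1 passed only through the control libraries. These genes are counted in the 51 and the 13.

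Of the 24 list genes named by their change with LPS, 7 lay in LPS + G-CDs cells below each LPS library (Trim25, Ifi204, Ikbke, Ticam1, Il1b, Nlrp3 and Mov10) and 3 above (Isg15, Oasl1 and Pld4), where 15.0% and 12.9% of all tested genes did. None of these differences passed. The genes were chosen with the same LPS libraries, so nothing is read from the count.

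The list of double-stranded RNA effectors held the kinase PKR, the oligoadenylate synthetases and the IFIT proteins, beside the interferon-induced modifier Isg15, its protease Usp18 and the exonuclease Isg20, which do not sense double-stranded RNA. With LPS, 15 of its 16 tested genes were higher (93.8%, against 15.8% of all genes). The median was 2.94, against 0.02 over all genes. Both the count and the median include the 5 genes whose direction the filter gave. Only Oas1c, named after its value was seen, did not pass (0.25). Isg15, a ubiquitin-like modifier induced by interferon, was at 2.51 ± 1.09 FPKM in control and 237 ± 14.3 in LPS cells (log2 difference 6.13, adjusted p = 1.40e-06). Oasl1, of the oligoadenylate synthetase family, rose from 9.89 ± 2.20 to 345 ± 6.30 FPKM (5.01), and Ifit1, which binds foreign RNA ends, from 0.275 ± 0.111 to 24.0 ± 2.32 FPKM (4.30). In the LPS + G-CDs libraries Isg15 (257 to 578 FPKM) and Oasl1 (395 to 482) lay above each LPS library, with log2 differences of 0.65 (adjusted p = 0.329) and 0.32 (adjusted p = 0.340) that did not pass.

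Among partners and brakes of the RNA sensors, 7 of 21 were higher (33.3%, against 15.8% of all genes). Lower were 2 (9.5%, against 15.6%), and the median was 0.24. Trim25, a ubiquitin ligase that promotes RIG-I signalling, rose from 38.3 ± 7.49 to 137 ± 2.69 FPKM (1.84, adjusted p = 0.000191), and Lrrc25, which promotes the breakdown of RIG-I, from 7.26 ± 1.57 to 34.0 ± 2.14 FPKM (2.10). Trim65, the ligase that activates MDA5, went the other way from Ifih1 itself and fell from 2.65 ± 0.0533 to 0.411 ± 0.0619 FPKM (-1.37, adjusted p = 3.50e-05). Trim25 was at 104, 78.1 and 63.4 FPKM in LPS + G-CDs libraries, below each LPS library, with a log2 difference of -0.77 that did not pass (adjusted p = 0.199).

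Among DNA sensing and STING partners, 7 of 22 were higher (31.8%, against 15.8% of all genes). Lower were 2 (9.1%, against 15.6%), and the median was 0.26. The 3 with the largest change were of the AIM2-like receptor family. Ifi202b rose from 0.375 ± 0.135 to 63.7 ± 3.84 FPKM (5.56, adjusted p = 1.51e-08), Ifi204 from 0.948 ± 0.635 to 19.4 ± 0.792 (3.45) and Ifi203 from 1.45 ± 0.337 to 13.4 ± 1.40 (2.56). Ifi204 was at 11.5, 13.3 and 13.0 FPKM with LPS + G-CDs, below each LPS library (-0.59, adjusted p = 0.313). These genes are close relatives, and how reads common to them were assigned was not stated.

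In TBK1 and IRF signalling, which joins the MAVS and STING routes, 7 of 14 were higher and 0 lower (median 0.42). Irf7, which drives interferon genes, rose from 4.09 ± 1.05 to 94.6 ± 4.98 FPKM (4.25, adjusted p = 7.17e-07), Ikbke, a kinase related to TBK1, from 3.79 ± 0.0858 to 43.3 ± 0.953 (3.21) and Ticam1, the adaptor TRIF, from 7.13 ± 1.97 to 31.9 ± 0.462 (2.05). Ikbke was at 33.9, 28.6 and 31.4 FPKM with LPS + G-CDs, below each LPS library (-0.46, adjusted p = 0.138).

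Type I interferon and its receptor relay had 4 of 8 genes higher and 1 lower (12.5%, median 0.87). Ifnb1, which encodes interferon-β, was listed at 0 in the 3 control libraries, at 10.1, 10.1 and 11.8 FPKM in LPS libraries and at 6.46, 7.87 and 11.9 in LPS + G-CDs libraries. Stat2 rose from 3.97 ± 0.670 to 19.3 ± 0.737 FPKM (2.04) and Irf9 from 6.33 ± 1.56 to 19.7 ± 1.08 (1.52), which together carry the signal of the interferon receptor to the nucleus. The 5 interferon-α genes of the list were listed at 0 in every library.

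Among the partners of AIM2 and ZBP1 in inflammasome assembly and cell death, 6 of 13 were higher (46.2%, against 15.8% of all genes). Lower was 1 (7.7%, against 15.6%), and the median was 0.45. Il1b, the cytokine that inflammasomes process, was listed at 0, 0.0308 and 0 FPKM in control and at 424 ± 7.72 in LPS libraries. Nlrp3, another inflammasome sensor, rose from 21.6 ± 6.80 to 260 ± 0.881 FPKM (3.57) and Casp4, which encodes caspase-11, from 1.33 ± 0.211 to 13.6 ± 1.46 (2.64). Pycard, which encodes the adaptor ASC that AIM2 needs to engage caspase-1, did not pass the filter. It reached at most 0.295 FPKM (21 reads) in any library, and it was named after its value was seen.

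Endosomal nucleic acid sensors and their helpers meet their ligands outside the cytosol. Of 8 tested, 2 were higher (25.0%) and 2 lower (25.0%, median -0.17), a gene or so in each direction from the shares of all genes. Tlr3 is among the 2 higher, with its direction given by the filter. 5430427O19Rik, which encodes TASL, rose from 3.82 ± 1.07 to 12.9 ± 0.776 FPKM (1.56), whereas Tlr13, a sensor of bacterial ribosomal RNA, fell from 5.21 ± 1.11 to 1.13 ± 0.0950 (-1.53) and Lgmn, a lysosomal protease, from 138 ± 9.94 to 56.4 ± 1.73 (-1.27). Among nucleases, editors and other restraints, 3 of 14 were higher (21.4%, near the 15.8% of all genes) and 5 lower (35.7%, median -0.35). Pld3 rose from 8.72 ± 2.72 to 25.2 ± 1.53 FPKM (1.48) while its relative Pld4 fell from 36.1 ± 5.71 to 13.2 ± 0.547 (-1.37), both of them endolysosomal exonucleases. Mov10, an RNA helicase, rose from 7.35 ± 0.443 to 20.6 ± 0.984 FPKM (1.37).

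**Figure D5:**
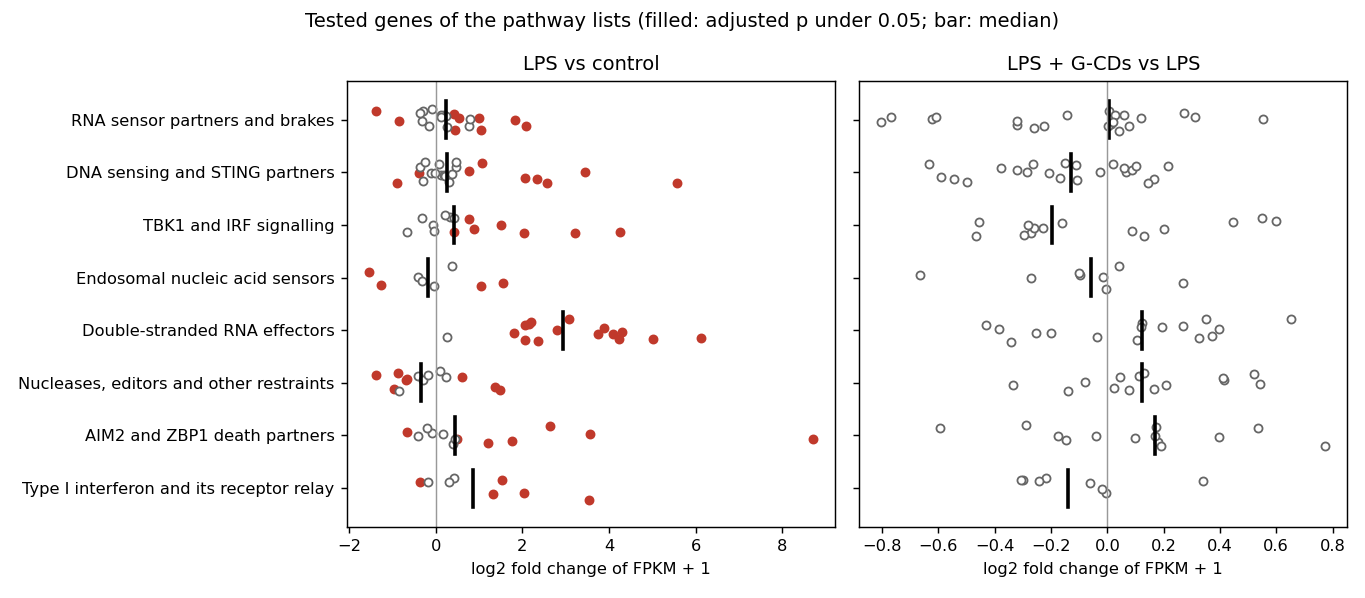
Log2 differences of FPKM + 1 (x axes, with different ranges) for the tested genes of the 8 pathway lists (y axis, with points spread vertically for visibility); filled points have an adjusted p under 0.05 and black bars are medians. For LPS against control the double-stranded RNA effectors have the median furthest to the right, 2.94, which counts 5 genes whose direction the filter gave. For LPS + G-CDs against LPS no point is filled.

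Genes with the profile most like each sensor were ranked by the root mean square difference of log2(FPKM + 1) over the 9 libraries, after subtracting each gene's control mean. Ddx58 was nearest to C3ar1 (0.159), Gbp3 (0.255) and Nfkbia (0.259), Ifih1 to Zfp811 (0.131), C5ar1 (0.174) and Zfp36 (0.220), and Dhx58 to Ehd1 (0.129), Rtp4 (0.145) and Pdcd1 (0.146). Zbp1 was nearest to Slc15a3 (0.0999), C5ar1 (0.147) and Ccl9 (0.148), and Adar to Naa25 (0.0987), Dtx3l (0.118) and P2ry2 (0.119). Aim2 was nearest to Ctsc (0.0550), Tmco3 (0.0808) and Smyd5 (0.0835), Mavs to 2700049A03Rik (0.0325), Nceh1 (0.0617) and Galnt1 (0.0734), and Tmem173 to Fdx1l (0.0648), Rap1a (0.0678) and Mtap (0.0684). C5ar1 was the only gene near more than a single sensor in these lists. The values are smaller where a sensor changed little, because many genes did, and they carry no test.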

How the data were processed

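The authors purified poly(A) RNA, sequenced it and deposited a table of FPKM values, with the position and length of each gene. The submitters' processing notes name the builds GRCm38 and mm10. The aligner, the counting method and its handling of strand are not given in the sources used here. Columns were mapped to samples by name, and 0 value columns belonged to other samples. Of 54409 genes also in GENCODE mouse release 21, 53499 had the same coordinates there. FPKM multiplied by gene length gave whole multiples of 1 read, within 0.05 reads, for 100.0% of values. The reads so recovered served for depth and for an alternative fit with limma's voom. The library sizes behind the deposited FPKM were 1.108 to 1.14 times the reads on genes in control, 0.929 to 0.936 times in LPS and 0.88 to 0.98 times in LPS + G-CDs libraries. These ratios differed between control and the treated groups, and so enter every difference against control.

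Genes with at least 1 FPKM in at least 3 libraries were tested (11585). Values were transformed as log2(FPKM + 1) and fitted in a model of the 9 libraries with limma 3.58.1 in R 4.3.3 (lmFit, eBayes with trend, two-sided). P-values were adjusted by Benjamini-Hochberg over all tested genes. Tables were made with Python 3.11.15 and pandas 2.3.3. The fit was tested on simulated data before use.

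The sensors and the lists were chosen with earlier results of these data known. Named were the 9 sensors, the 3 genes of each list with the largest change at an adjusted p under 0.05 in LPS against control and in LPS + G-CDs against LPS, and the 3 genes nearest to each tested sensor in profile. Of 138 list symbols, 136 were found. Same-numbered control and LPS libraries deviated together from their group means (r = 0.103, 0.137 and 0.113, each over 0.1), and were taken as paired. For LPS and LPS + G-CDs r was 0.095, 0.08 and 0.143, and for control and LPS + G-CDs 0.28, 0.057 and 0.653, not each over the limit. The main fit holds no replicate block; a fit with it is among the alternatives. Shared sequence was counted in 50-base words of the longest GENCODE transcript.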

Additional observations from a re-analysis of the deposited data

How the results depend on the processing

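Over 20 alternative fits, 9 of them leaving out a library, Ddx58, Ifih1, Dhx58, Zbp1 and Adar stayed higher at an adjusted p under 0.05 in both comparisons with control. With LPS against control, 2412 genes passed at a mean FPKM of at least 5, where 7235 genes were tested. With LPS + G-CDs against LPS, genes passing were 25 with a pseudocount of 0.1, 37 after rescaling to the same sum of FPKM, 25 with the 6 libraries alone, 89 with the length trend removed and 11 to 256 (without LPS + G-CDs replicates 2 and 1) with a library left out, each library but control replicates 1 and 3 moving the count over 1.5 times. Leaving out a library also moved sensors passing by either rule from 0 to 1 (Ifih1, without LPS + G-CDs replicate 1). With LPS + G-CDs against LPS, genes at an unadjusted p under 0.05 were 870 (without LPS + G-CDs replicate 3) to 4373 (without replicate 1) with a library left out and 2796 with the replicate block, in place of 1765, and by the study's threshold 192 (without LPS replicate 2) to 1368 (without LPS + G-CDs replicate 1) and 488, in place of 288. With LPS + G-CDs against control, 1789 passed with the 6 libraries alone and 1914 (without LPS + G-CDs replicate 2) to 3245 with a library left out. Tmem173 reversed. Against control, after rescaling, it was -0.15 for LPS and -0.31 for LPS + G-CDs, and with a library left out it ran from -0.0103 to 0.2276 and from -0.005 to 0.2329. In LPS + G-CDs against LPS it was -0.15 rescaled, -0.0191 by median-of-ratios, -0.0019 by voom, -0.19 with the length trend removed and -0.0511 to 0.0778 with a library left out. Mavs was -0.045 there when rescaled. These causes were not tested. With the replicate block, 4104, 53 and 3347 genes passed in the 3 comparisons, and sensors passing stayed at 7, 0 and 7. Of the tested sensors, depth limits Zbp1 in control cells (4 to 12 reads), and of the named genes also Ifi202b (9 to 16), Ifit1 (10 to 19), Il1b (0 to 1) and Ifnb1 (0) there.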
